A study of Mus musculus with 9 samples.

Results

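A set of 30 genes of rod photoreceptors, the dim-light receptor cells that make up most of the cells of a mouse retina, is described here in a model of retinopathy and its treatment. They were chosen by name, with earlier results of these data known, and all 30 were found among the 26683 genes of the deposited count table. They encode the proteins of the light response (transducin, phosphodiesterase, the cGMP-gated channel, the shut-off proteins and the enzymes that make cGMP), structural proteins of the outer segment, and 3 transcription factors.

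Bulk RNA sequencing was done on retinas of mice at postnatal day 17, with 3 libraries in each of 3 groups. Normoxic mice were the reference. PBS mice had oxygen-induced retinopathy (OIR, in which young mice are kept in high oxygen, lose growing retinal vessels and form abnormal ones after return to room air) and received phosphate-buffered saline into the vitreous at postnatal day 15. Gel mice had OIR and received, on the same day, an injected hydrogel, PCC1/PHCF in the labels, which releases procyanidin C1, a plant polyphenol that the series title describes as acting on senescent cells. Strain, sex and oxygen level are not given in the labels, an injection of the Normoxic mice is not mentioned, and there was no hydrogel without procyanidin C1, so PBS against Normoxic covers OIR and possibly the injection, and Gel against PBS covers drug and carrier together. All 9 libraries carry 1 batch date. Whether each library came from its own animal is not stated, so p-values measure only the spread between these libraries, which may be technical.

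In a rod, light leads to activation of the G protein transducin. Transducin releases the inhibitory subunits of phosphodiesterase, cGMP falls, and the cGMP-gated channels of the outer segment close. Arrestin, a receptor kinase and a GTPase-activating complex end the response, and guanylate cyclases, driven by small calcium sensors, restore cGMP. The transcription factors Crx, Nrl and Nr2e3 set up and maintain this program: Crx acts in rods and cones, Nrl directs precursors to the rod fate, and Nr2e3 acts downstream of Nrl and represses cone genes.

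The promoters of the 3 transcription factor genes are shown because all 3 genes were higher in every injected than in every Normoxic library. Of all genes with enough counts to test, 14.9% were higher in this way in PBS and 11.1% in Gel. Each promoter is the 250 bases before the RefSeq start on the strand of the gene (build GRCm38.p6). Capitals mark TAATCC, the core bound by Crx and its relative Otx2, read on either strand.

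Nr2e3, chr9:59950080-59950329, minus strand: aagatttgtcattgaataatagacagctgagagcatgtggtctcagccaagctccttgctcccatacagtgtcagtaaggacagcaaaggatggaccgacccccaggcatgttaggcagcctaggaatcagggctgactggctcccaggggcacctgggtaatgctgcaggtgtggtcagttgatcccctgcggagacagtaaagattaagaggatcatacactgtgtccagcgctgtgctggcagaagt
Nrl, chr14:55524253-55524502, minus strand: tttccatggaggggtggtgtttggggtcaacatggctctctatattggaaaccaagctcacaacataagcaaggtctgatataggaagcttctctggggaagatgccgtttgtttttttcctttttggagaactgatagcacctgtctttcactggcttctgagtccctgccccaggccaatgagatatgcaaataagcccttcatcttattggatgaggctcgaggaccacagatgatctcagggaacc
Crx, chr7:15879956-15880205, minus strand: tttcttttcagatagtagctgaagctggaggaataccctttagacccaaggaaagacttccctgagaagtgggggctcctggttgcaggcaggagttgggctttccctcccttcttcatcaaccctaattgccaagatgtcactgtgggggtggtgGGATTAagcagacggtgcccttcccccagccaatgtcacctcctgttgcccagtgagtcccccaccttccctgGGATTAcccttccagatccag

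Crx held this core at 2 places, both on the reverse strand, 94 to 89 and 21 to 16 bases before the start. Neither Nr2e3 nor Nrl held these 6 letters in the window. Among the 23 rod genes with an entry in the RefSeq table, 10 (43.5%) held TAATCC, against 7.21% of the 27025 genes in the table. TGCTGA, part of the element bound by Nrl and other MAF factors, was in 5 of the 23 (21.7%) and in 18.0% of all genes. These are matches of letters in a window of fixed length, and binding was not measured.

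In the Normoxic retina the rod genes spanned a wide range of levels. On the FPKM scale, which divides by gene length and so allows levels of different genes to be compared, Gnat1, the transducin alpha subunit, was the most abundant of the 30 at 4656 ± 440 FPKM (SD, n = 3). Prph2, a protein of the disc rim, followed at 1828 ± 61.8 FPKM, then Pde6g, the inhibitory subunit of phosphodiesterase, at 1587 ± 40.5 FPKM, and Rom1, the partner of Prph2, at 1439 ± 32.7 FPKM. Rom1 and Gnb1, the transducin beta subunit (1433 ± 13.0 FPKM), did not differ beyond their spread. The catalytic phosphodiesterase subunits were lower than the inhibitory one, Pde6b at 599 ± 44.4 FPKM and Pde6a at 238 ± 12.7 FPKM. At the bottom stood the guanylate cyclases, Gucy2e at 60.2 ± 4.41 FPKM and Gucy2f at 9.49 ± 0.861 FPKM. Together the 30 genes took 5.24% to 5.55% of the counts of the Normoxic libraries.

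That share did not separate the groups. It was 5.40%, 5.26% and 6.63% in PBS replicates 1, 2 and 3, and 5.31%, 6.21% and 5.97% in Gel replicates 1, 2 and 3. PBS replicate 3 was the highest of all 9 libraries, and PBS replicates 1 and 2 and Gel replicate 1 lay within the Normoxic range. The group means were 5.35% ± 0.174 in Normoxic, 5.77% ± 0.755 in PBS and 5.83% ± 0.469 in Gel (SD, n = 3), and libraries of all 3 groups overlapped. In bulk RNA, fewer rods and less RNA per rod cannot be told apart. Total counts per library ran from 29324142 to 35663470, so 1 CPM (the usual count scaled to library total) rested on 29.3 to 35.7 counts, and every one of the 30 genes had over 90 CPM in every library.

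**Figure D1:**
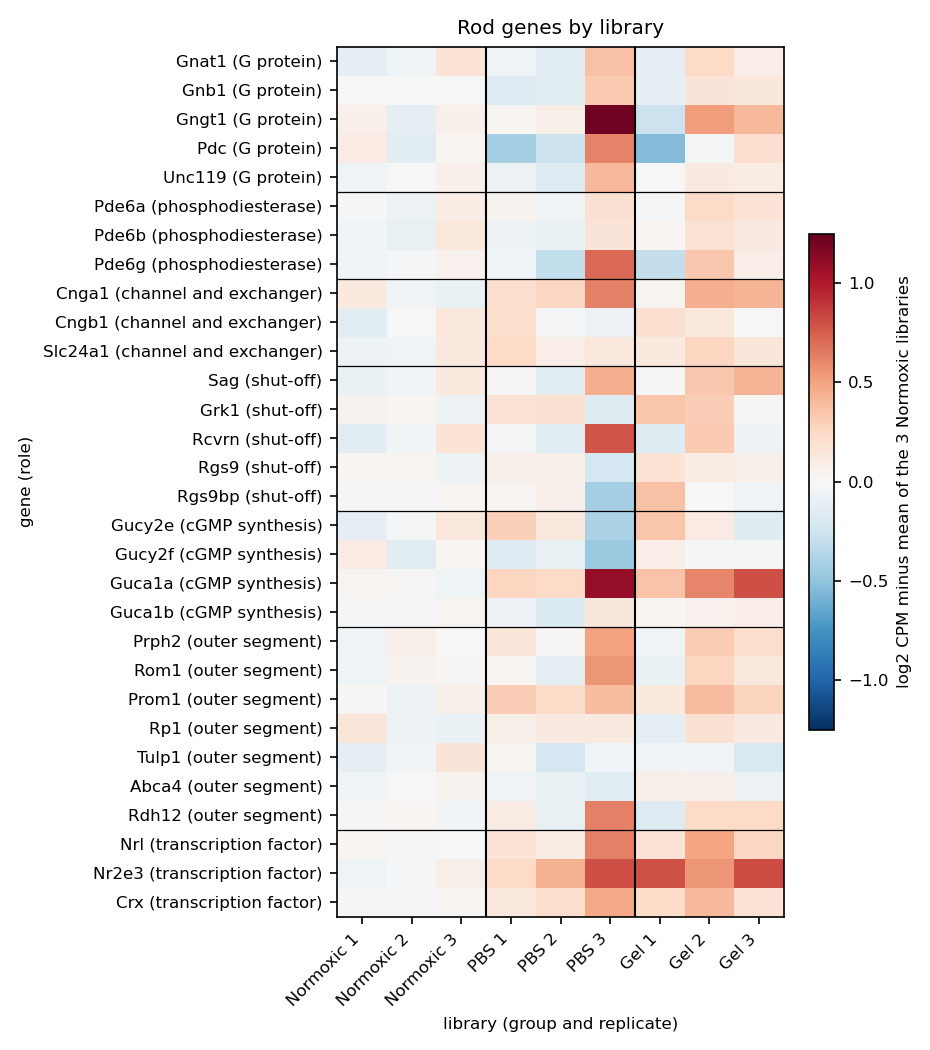
Log2 CPM of each of the 30 rod genes (rows, grouped by role) in each of the 9 libraries (columns), minus the mean of the 3 Normoxic libraries; red is higher and blue lower. PBS 3 holds both the highest value (Gngt1, 1.22) and some low ones (Gucy2f, -0.46), and Nr2e3 is red in all 6 injected libraries.

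Changes were then tested gene by gene with edgeR's quasi-likelihood test over all 17362 genes with enough counts, with Benjamini-Hochberg adjustment, and a gene was called where the adjusted p was under 0.05. In PBS against Normoxic, 0 of the 30 rod genes were called, where 6.34% of all tested genes were. Of the 30, 5 had an unadjusted p under 0.05 (21.4% of all genes did), DESeq2 called 2 (Prom1 and Nr2e3, where it called 11.2% of all genes), and limma-voom called 0 (6.17% of all genes). The median log2 fold change of the rod genes was 0.09, against 0.01 over all genes, with 24 of the 30 above 0 (51.3% of all genes were). Without PBS replicate 3 the median was 0.021. In Gel against Normoxic, 1 of 30 was called, Nr2e3, where 1.41% of all genes were, 4 had an unadjusted p under 0.05 (13.2% of all genes), and the median was 0.11 against 0.00, with 28 of 30 above 0 (50.1% of all genes). DESeq2 and limma-voom also called Nr2e3 alone of the 30 there (4.87% and 1.07% of all genes). In Gel against PBS, edgeR called 0 of the 30 and 0% of all genes, 0 of the 30 had an unadjusted p under 0.05 (5.53% of all genes), 16 of 30 were above 0 (47.3% of all genes), and DESeq2 and limma-voom each called 0 of the 30 (0.372% and 0% of all genes). The comparisons share groups, so their values for a gene are not independent. The 30 genes share their libraries, so the counts above 0 are not counts of independent genes. Against the Normoxic mean, 22 of the 30 were above in Normoxic replicate 3 and 9 in Normoxic replicate 2.

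All 3 transcription factor genes were higher in every PBS and every Gel library than in every Normoxic library. Of all tested genes, 14.9% were higher in this way in PBS and 11.1% in Gel. Nr2e3 (Entrez 23958) was at 606, 613 and 648 CPM in the Normoxic libraries, at 737, 869 and 1042 CPM in PBS and at 1076, 892 and 1094 CPM in Gel. All 6 injected libraries lay above all 3 Normoxic libraries, while PBS and Gel overlapped. Nr2e3 rose 1.65-fold in Gel against Normoxic (log2 fold change 0.72 ± 0.15, SE, edgeR adjusted p = 0.0405, 95% interval 1.32-fold to 2.06-fold). In PBS against Normoxic the fold was 1.43 (log2 0.52 ± 0.15), which missed the threshold (edgeR adjusted p = 0.0632, range over the alternatives 0.0132 to 0.2).

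The call of Nr2e3 in Gel rested on all libraries of its groups. It was lost without any 1 of the 3 Normoxic libraries, without any 1 of the 3 Gel libraries and without PBS replicate 2, with edgeR adjusted p up to 0.19, while the log2 fold change stayed between 0.68 and 0.80. It was kept with the length trend removed (edgeR adjusted p = 0.0108). Exons of Nr2e3 overlap those of Gm15507, a non-coding gene on the same strand in GENCODE M21, and how reads of such overlaps were counted is not stated.

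Nrl (Entrez 18185) was at 1793, 1717 and 1724 CPM in Normoxic, 1954, 1914 and 2589 CPM in PBS and 1960.0, 2406 and 2100 CPM in Gel. The Normoxic libraries again did not overlap the others, and PBS replicate 3 was the highest. The log2 difference was 0.32 ± 0.15 (SE) both in PBS and in Gel against Normoxic, with edgeR adjusted p of 0.255 and 0.409. In PBS without replicate 3 it was 0.13 (edgeR adjusted p = 0.632). Crx (Entrez 12951) was at 1054, 1031 and 1060 CPM in Normoxic, 1147, 1256 and 1395 CPM in PBS and 1229, 1360 and 1191 CPM in Gel. It too had no overlap between Normoxic and injected libraries, at log2 differences of 0.28 ± 0.12 in PBS and 0.28 ± 0.12 in Gel (edgeR adjusted p = 0.199 and 0.345). The PBS value for Crx was 0.18 without replicate 3 (edgeR adjusted p = 0.433). Neither gene passed the test in any of the alternatives.

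**Figure D2:**
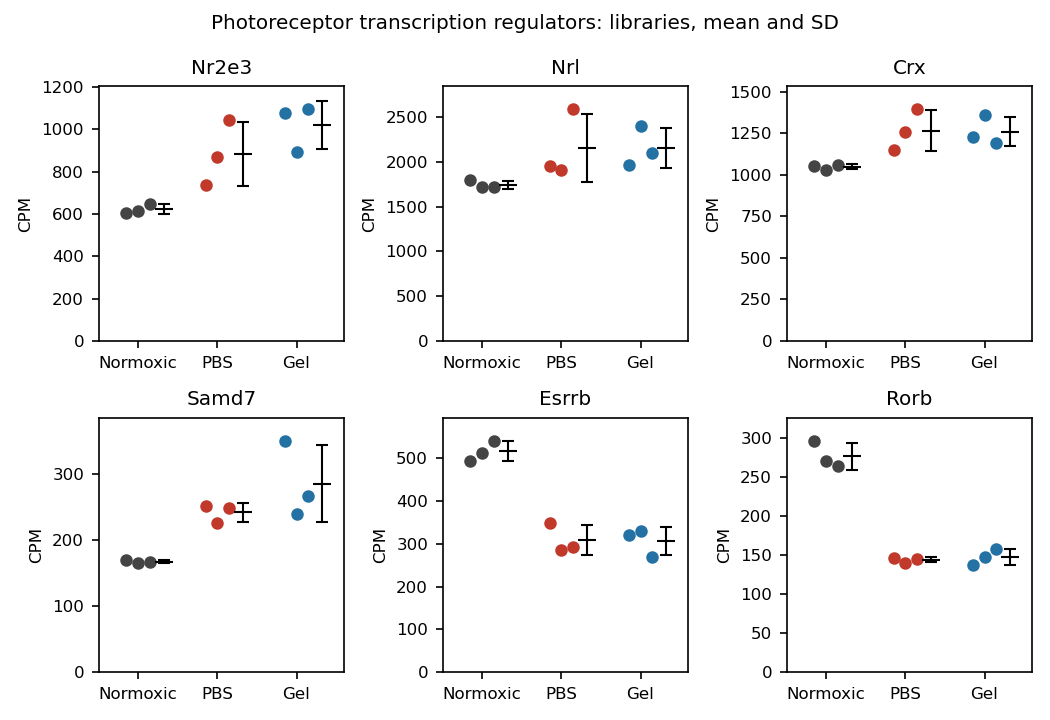
CPM of 6 photoreceptor transcription regulators in each library (points, by group), with the group mean and SD (bar, n = 3) beside them; axes start at 0. Nr2e3, Nrl, Crx and Samd7 are higher and Esrrb and Rorb lower in every injected library than in every Normoxic library. Other regulators, such as Otx2 and Neurod1, are not shown.

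Beyond the 30, a list of 36 other photoreceptor genes held further regulators that passed the test. Other regulators of that list were not called in any comparison. In Normoxic, PBS and Gel, Otx2 had means of 199, 206 and 213 CPM and Neurod1 of 321, 335 and 301 CPM. Those of Mef2c were 16.9, 18.4 and 18.8 CPM, and those of Samd11 886, 735 and 807 CPM. Rorb, a nuclear receptor that acts upstream of Nrl in rod development, fell from 297, 270.3 and 264 CPM in Normoxic to 146, 141 and 146 CPM in PBS and was at 138, 148 and 159 CPM in Gel. It was called in PBS (log2 -0.93 ± 0.10, SE, edgeR adjusted p = 0.000633) and in Gel (-0.89 ± 0.10, edgeR adjusted p = 0.00236) against Normoxic, in all 19 alternatives. Rorb is also made by other retinal neurons. Esrrb, an orphan nuclear receptor of rods, fell from 493, 512 and 540 CPM to 349, 284 and 293 CPM in PBS and 321, 330.3 and 268 CPM in Gel. Its log2 fold changes were -0.73 ± 0.13 and -0.74 ± 0.13 (edgeR adjusted p = 0.00698 and 0.019). The call in PBS was kept in all 19 alternatives, and the call in Gel was lost without any 1 Normoxic library and without Gel replicate 2 or 3 (edgeR adjusted p up to 0.104).

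Samd7, a polycomb protein that silences non-rod genes in rods, rose from 170, 165 and 167 CPM to 251, 225 and 248 CPM in PBS, and stood at 350.1, 239 and 267 CPM in Gel. Its log2 fold changes were 0.54 ± 0.14 and 0.78 ± 0.14 (edgeR adjusted p = 0.0409 and 0.0222). Leaving out 1 library ended both calls in several cases, those of each Normoxic library and of Gel replicate 3 in both comparisons, and those of PBS replicates 1 and 3 in PBS (edgeR adjusted p up to 0.155). Cerkl, a gene of inherited retinal degeneration, rose from 21.5 ± 1.49 CPM in Normoxic to 35.3 ± 6.23 CPM in PBS (SD, n = 3), with an edgeR adjusted p of 0.00691, and passed in all 19 alternatives. In Gel it was at 27.9 ± 0.615 CPM (edgeR adjusted p = 0.183 against Normoxic, and 0.042 without PBS replicate 3). In all, 2 of the 36 were called higher and 2 lower in PBS, where 4.31% and 2.03% of all genes were, 1 higher and 2 lower in Gel against Normoxic (1.12% and 0.288% of all genes), and 0 in Gel against PBS, where 1 had an unadjusted p under 0.05 and DESeq2 and limma-voom called 0. The list of 36 was chosen with earlier results of these data known, so setting its counts beside those shares is not an independent comparison. Its median log2 fold change was 0.08, 0.12 and 0.00 in PBS against Normoxic, Gel against Normoxic and Gel against PBS.

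None of the 5 genes of the G protein step passed the test in any comparison, and all 5 spread more in PBS than in Normoxic. Gnat1 (Entrez 14685) was at 9941, 10206 and 11800 CPM in Normoxic, 10208, 9843 and 13083 CPM in PBS and 9847, 12354 and 11272 CPM in Gel. The groups overlapped throughout, and the 95% interval of the fold ran from 0.819 to 1.34 in PBS against Normoxic and from 0.787 to 1.29 in Gel against PBS. Gnb1 stood at 4592 ± 41.8, 4632 ± 762 and 4796 ± 448 CPM in Normoxic, PBS and Gel (SD, n = 3). Gngt1, the rod transducin gamma subunit, was at 469, 404 and 456 CPM in Normoxic, 450, 476 and 985 CPM in PBS and 366, 623 and 587 CPM in Gel. Its PBS mean was set by replicate 3: the log2 difference of 0.55 ± 0.30 (SE, edgeR adjusted p = 0.32) was between 0.04 and 0.75 over the alternatives. Pdc, phosducin, which binds the beta-gamma subunits in light, split the PBS group in the same way, at 1018, 1156 and 1998 CPM against 1475, 1238 and 1370 CPM in Normoxic, so that its sign against Normoxic differed between alternatives (-0.36 to 0.24). Unc119, which carries transducin alpha to the outer segment, was at 1578 ± 50.6 CPM in Normoxic and 1651 ± 306 CPM in PBS.

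The 3 phosphodiesterase subunits did not move together. Pde6a was at 1953, 1843 and 2051 CPM in Normoxic, 2007, 1933 and 2136 CPM in PBS and 1920, 2243 and 2200.4 CPM in Gel. Pde6b was at 1665, 1574 and 1821 CPM, then 1599, 1625 and 1800.1 CPM, then 1706, 1865 and 1824 CPM. Both overlapped between all groups and varied little. Pde6g, with the shortest gene of the 3, was at 2025, 2001 and 2101 CPM in Normoxic but at 1964, 1693 and 3188 CPM in PBS and 1651, 2524 and 2171 CPM in Gel, so its PBS libraries lay on both sides of Normoxic. The subunits were fitted at log2 0.07, 0.00 and 0.18 in PBS against Normoxic, none past the test.

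Of the channel and exchanger genes, Cnga1, the alpha subunit of the rod cGMP-gated channel, was higher in PBS without overlap. It was at 602, 530 and 513 CPM in Normoxic, 632, 670 and 813 CPM in PBS and 559, 735 and 738 CPM in Gel. The log2 difference in PBS was 0.38 ± 0.15 (SE, edgeR adjusted p = 0.179; 0.23 and 0.398 without PBS replicate 3), and in Gel, where replicate 1 fell into the Normoxic range, 0.32 ± 0.15 (edgeR adjusted p = 0.408). Cngb1, the beta subunit, was at 836 ± 65.3 CPM in Normoxic, 857 ± 106 CPM in PBS and 897 ± 57.5 CPM in Gel (SD, n = 3). Slc24a1, the exchanger that removes calcium from the outer segment, was at 1191 ± 78.1, 1319 ± 83.4 and 1338 ± 57.2 CPM, and its Gel libraries lay above the Normoxic ones (log2 0.18 ± 0.11, edgeR adjusted p = 0.534).

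The shut-off genes went in opposite directions within 1 library. Sag, rod arrestin, was at 4026, 4075 and 4522 CPM in Normoxic, 4224, 3933 and 5504 CPM in PBS and 4240, 5183 and 5639 CPM in Gel. Rcvrn, recoverin, the calcium sensor that restrains the kinase Grk1, was at 1305, 1369 and 1573 CPM in Normoxic and at 1394, 1315 and 2334 CPM in PBS. In both genes PBS replicate 3 was far above the other PBS libraries. Grk1, the kinase that acts with arrestin in shut-off, had its lowest value of all 9 libraries in that same library, 1192 CPM against 1566 and 1624 CPM in the other PBS libraries and 1310 to 1443 CPM in Normoxic. Rgs9, which speeds GTP hydrolysis by transducin, and Rgs9bp, its membrane anchor, were likewise lowest there, at 1339 and 393 CPM against 1543 to 1675 and 537 to 554 CPM in Normoxic. None of the 5 shut-off genes passed the test in any comparison.

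Genes of cGMP synthesis held a gene with fitted differences of the size of those of Nr2e3 but with more spread. Guca1a (Entrez 14913), the calcium sensor GCAP1 that activates the cyclases, was at 342, 331 and 313 CPM in Normoxic, 396, 396 and 675 CPM in PBS and 420, 490 and 576 CPM in Gel. All 6 injected libraries lay above Normoxic. The log2 difference was 0.59 ± 0.21 (SE) in PBS and 0.60 ± 0.21 in Gel against Normoxic, neither past the test (edgeR adjusted p = 0.137 and 0.227). In Gel against Normoxic edgeR called Guca1a without PBS replicate 3 (adjusted p = 0.0101), with the length trend removed (0.0213) and with only the 6 libraries compared (0.0194). In PBS without replicate 3 the log2 difference was 0.25 (edgeR adjusted p = 0.309). Guca1b, the second such sensor, was at 1050 ± 13.9, 1019 ± 81.5 and 1081 ± 28.4 CPM in Normoxic, PBS and Gel (SD, n = 3). Gucy2e, the main cyclase of mouse photoreceptors, was at 521 ± 38.2, 535 ± 138 and 559 ± 96.5 CPM. Gucy2f, the other cyclase, was at 146, 122 and 135 CPM in Normoxic, 120, 129 and 93.2 CPM in PBS and 141, 129 and 133 CPM in Gel. It was the 1 rod gene whose Gel and PBS libraries did not overlap, with Gel higher (log2 0.24 ± 0.12, edgeR adjusted p = 0.939), where 2.73% of all genes had that pattern (5.15% the reverse), and by a margin of less than 1 CPM.

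Among outer segment genes, Prom1, a membrane protein of newly forming discs, was at 668, 619 and 676 CPM in Normoxic, 805, 786 and 821 CPM in PBS and 710.0, 836 and 795 CPM in Gel. The libraries did not overlap with Normoxic in either group, and PBS replicate 3 did not stand apart. The log2 difference was 0.31 ± 0.11 in PBS (SE, edgeR adjusted p = 0.129, DESeq2 adjusted p = 0.037) and 0.26 ± 0.11 in Gel (edgeR adjusted p = 0.314). An antisense gene, Gm16401, overlaps exons of Prom1, and whether counting used strand is not stated. Prph2 was at 4836 ± 164, 5641 ± 830 and 5415 ± 626 CPM and Rom1 at 2196 ± 49.9, 2461 ± 544 and 2352 ± 263 CPM in Normoxic, PBS and Gel (SD, n = 3), both overlapping. Rp1, which organises the axoneme, was at 1163 ± 120, 1234 ± 47.7 and 1210 ± 120 CPM, and Tulp1, needed for protein transport to the outer segment, at 1382 ± 130, 1303 ± 98.7 and 1286 ± 66.7 CPM. Abca4, which clears retinal adducts from discs, was the 1 rod gene lower in all PBS than in all Normoxic libraries, by a small margin: 1244, 1278 and 1306 CPM against 1234, 1235 and 1106 CPM (log2 -0.09 ± 0.10, edgeR adjusted p = 0.625). Rdh12, a retinal reductase of the inner segment, was at 472, 468 and 447 CPM in Normoxic and 492, 444 and 685 CPM in PBS.

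Counted over all roles, 6 of 30 rod genes were higher in every PBS than in every Normoxic library (Cnga1, Guca1a, Prom1, Nrl, Nr2e3 and Crx) and 1 was lower (Abca4). Over all tested genes these shares were 14.9% and 14.1%, so 6 of 30 is near the background. In Gel against Normoxic 8 were higher (Slc24a1, Rgs9, Guca1a, Guca1b, Prom1, Nrl, Nr2e3 and Crx) and 0 lower, where 11.1% and 12.8% of all genes were. Both comparisons share the Normoxic libraries. Without PBS replicate 3, 11 were higher and 6 lower in PBS, with backgrounds of 22% and 18.8%. The 6 lower ones were Gnb1, Pdc, Unc119, Pde6g, Guca1b and Abca4.

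**Figure D3:**
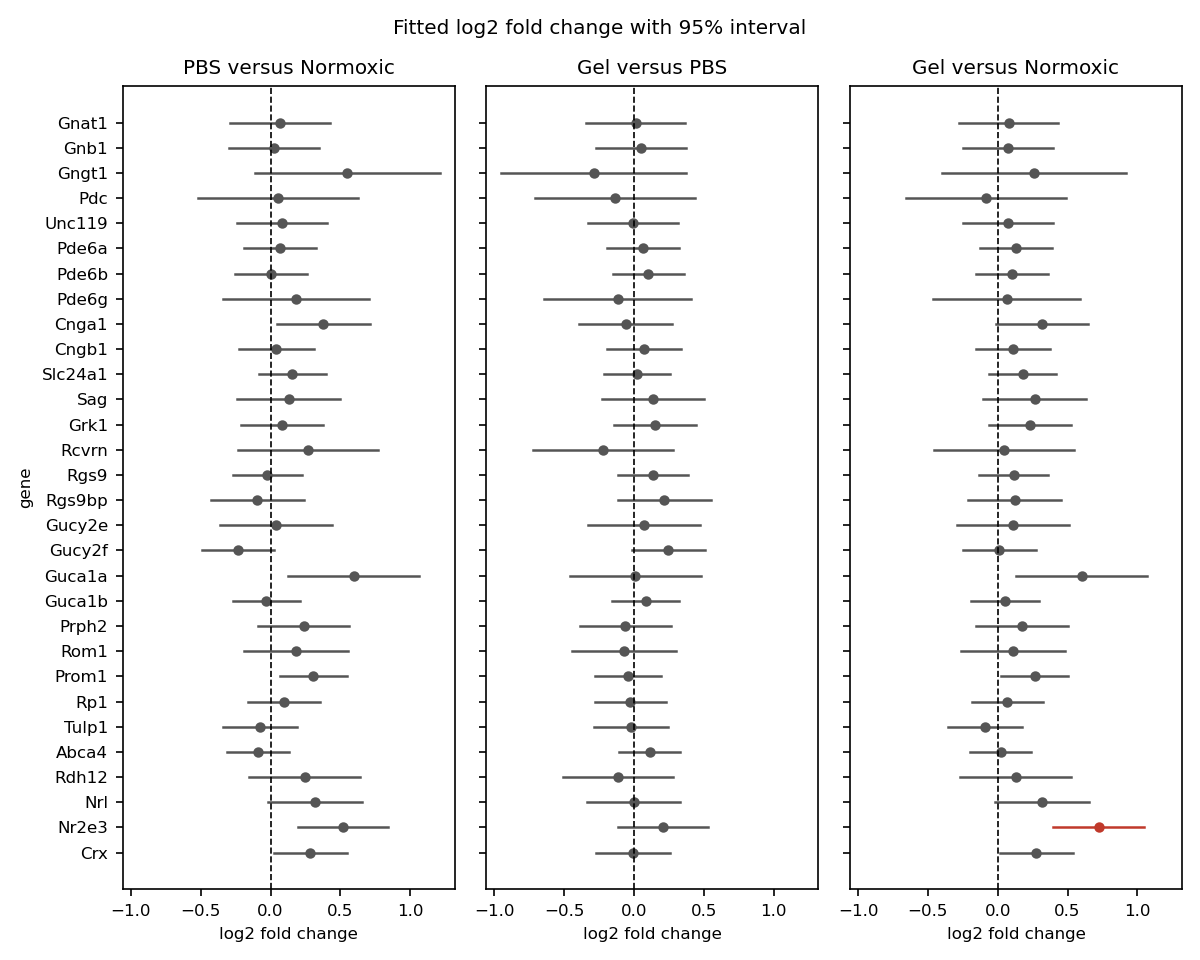
Fitted log2 fold change of the 30 rod genes (points) with its 95% interval (lines) in the 3 comparisons; red marks a gene past the edgeR threshold. Nr2e3 in Gel versus Normoxic (0.72) is the one red point, and every interval in Gel versus PBS includes 0.

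The intervals give the folds that the data allow in Gel against PBS. Over the 30 genes the fitted folds ran from 0.818 (Gngt1) to 1.18 (Gucy2f), and the 95% intervals reached from 0.517 (Gngt1, lower bound) to 1.46 (Rgs9bp, upper bound). Abca4 had one of the narrower intervals, 0.926 to 1.26. For Nr2e3 the fold was 1.15, with an interval from 0.922 to 1.44. Without PBS replicate 3 the median log2 fold change of the rod genes in Gel against PBS was 0.13 in place of 0.01, and 8 rod genes, among them Nr2e3, Nrl, Guca1a and Sag, were higher in all Gel than in both remaining PBS libraries, and 0 were lower (6.5% and 12.6% of all genes). By edgeR none of the 30 was then called (0.0339% of all genes were), and 3 had an unadjusted p under 0.05 (7.32% of all genes).

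The spread of the PBS group followed gene length. PBS replicate 3 was the highest PBS library for 20 of the 30 rod genes and the lowest for 9. Relative to the Normoxic mean, the 15 shorter rod genes (up to 2818 bases in the authors' FPKM) had a median log2 value of 0.63 in that library and the 15 longer ones (from 3018 bases) 0.11. The extremes were Gngt1 (1947 bases) at 1.22 and Guca1a (958 bases) at 1.10 on one side and Gucy2f (14162 bases) at -0.46 and Rgs9bp (6590.0 bases) at -0.41 on the other. The shorter and longer genes had medians of 0.031 and 0.062 in PBS replicate 1, and of -0.094 and 0.060 in PBS replicate 2.

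Across the 30 genes, the Spearman correlation of length with a library's difference from the others of its group was -0.86 in PBS replicate 3, against 0.74 and 0.84 in PBS replicates 1 and 2, 0.60, -0.46 and -0.41 in Gel replicates 1 to 3, and -0.12 to 0.14 in Normoxic. The values within a group mirror each other, since each library is set against the rest, and the genes share their library. Over all tested genes the same measure was -0.49 in PBS replicate 3. Cytosolic ribosomal protein genes, which are short, summed to 26260 CPM there and to 10588 to 16306 CPM in the other 8 libraries. What produced the length pattern was not tested.

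**Figure D4:**
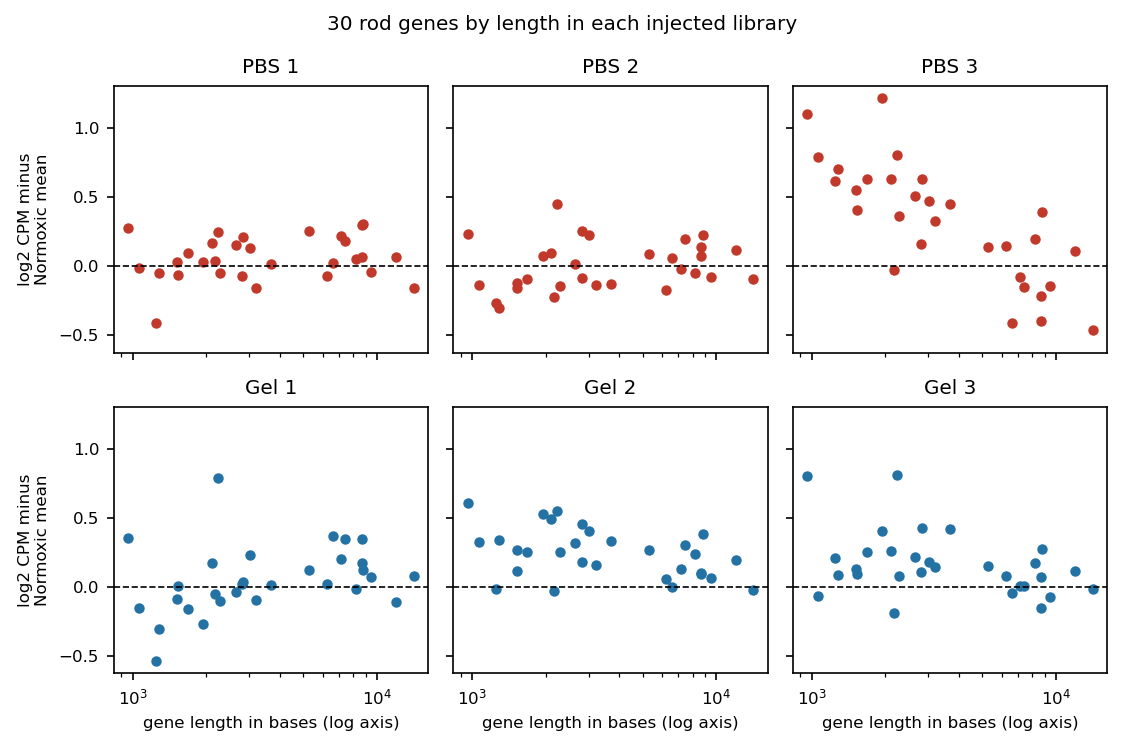
Log2 CPM of the 30 rod genes minus their Normoxic mean (vertical axis) against gene length in bases (horizontal log axis), 1 panel for each injected library. In PBS 3 the 15 shorter genes lie higher (median 0.63) than the 15 longer ones (median 0.11), which fall on both sides of the Normoxic mean. In Gel 1 and Gel 3 the highest point, at 2235 bases, is Nr2e3 (0.79 and 0.81).

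Nr2e3, Guca1a, Nrl, Crx, Prom1 and Cnga1 lay above the median rod gene in all 6 injected libraries. They are the same genes that were higher in every PBS than in every Normoxic library, so this partly restates that result. Guca1a, Nrl, Nr2e3 and Cnga1 are among the shorter 15 of the rod genes. For Nr2e3 the log2 value relative to Normoxic, minus the median of the 30 genes in the same library, was 0.21, 0.48 and 0.43 in PBS replicates 1 to 3 and 0.77, 0.30 and 0.69 in Gel replicates 1 to 3. For Guca1a these values were 0.23, 0.27 and 0.73 in PBS and 0.34, 0.36 and 0.68 in Gel, above those of Nr2e3 in PBS replicates 1 and 3 and Gel replicate 2. For Crx they were 0.09, 0.26 and 0.10 in PBS and 0.21, 0.16 and 0.06 in Gel, all above 0. For Nrl they were 0.13, 0.13 and 0.26 in PBS and 0.15, 0.24 and 0.14 in Gel. With the length trend removed and without PBS replicate 3, a combination chosen after seeing the data, the log2 fold change of Nr2e3 was 0.34 in PBS (edgeR adjusted p = 0.117) and 0.69 in Gel (edgeR adjusted p = 0.003) against Normoxic.

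Genes of the photoreceptor terminal and of cones were compared because rods sit beside both. Of 14 terminal genes 0 were called by edgeR in any comparison. Of all genes, 6.34%, 0% and 1.41% were called in PBS against Normoxic, Gel against PBS and Gel against Normoxic. In the same order, 1, 0 and 0 terminal genes had an unadjusted edgeR p under 0.05, and 21.4%, 5.53% and 13.2% of all genes did. The median log2 fold change of the terminal genes in PBS against Normoxic was -0.15. Of 14 cone genes, 1 was called higher in PBS, Gnb3, the cone transducin beta subunit that bipolar cells also make, at 466, 490 and 432 CPM in Normoxic, 854, 625 and 664 CPM in PBS and 552, 513 and 563 CPM in Gel (log2 0.64 ± 0.13, SE, edgeR adjusted p = 0.0157 in PBS, lost without any 1 Normoxic library, up to 0.0834). Of all genes, 4.31% were called higher in PBS, so 1 of 14 is near the background. The cone list median was 0.31 in PBS and 0.16 in Gel against Normoxic, beside 0.09 and 0.11 for the 30 rod genes. Median gene length was 2256 bases in the cone list, 2918 in the rod genes and 7976 in the terminal genes. Without PBS replicate 3 the rod median in PBS was 0.021. The part of the length pattern in these list medians was not tested.

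Markers of other cells differed between the groups and are given because shares of counts depend on all cells of the tissue. The 7 amacrine markers summed to 1322 to 1345 CPM in Normoxic, 852 to 1048 CPM in PBS and 1020 to 1101 CPM in Gel, and the 8 bipolar markers to 2036 to 2055, 1296 to 1610.3 and 1483 to 1707 CPM. The 9 microglia markers rose from 45.8 to 53.6 CPM in Normoxic to 138 to 206 CPM in PBS and 99.9 to 134 CPM in Gel. Of these 9, 6 were called higher in PBS and 5 in Gel against Normoxic, where 4.31% and 1.12% of all genes were. Called lower in PBS were 3 of the 7 amacrine and 3 of the 8 bipolar markers (2.03% of all genes). In Gel against Normoxic these counts were 0 and 1 (0.288% of all genes). PBS replicate 3 held the lowest amacrine and bipolar sums of its group and the highest microglia sum. Median gene lengths of the 3 lists were 5264, 4573 and 1247 bases. The 9 pigment epithelium markers come from the layer next to the rod outer segments. They summed to 34.8 to 121 CPM in Normoxic, 71.8 to 263 CPM in PBS and 166 to 252 CPM in Gel. The 263 CPM were in PBS replicate 3, against 71.8 and 77.1 CPM in PBS replicates 1 and 2. None of the 9 was called, and none was at 0 in any library. At an unadjusted edgeR p under 0.05 were 1 of the 9 in PBS and 5 in Gel against Normoxic (21.4% and 13.2% of all genes). Log2 fold changes were above 0 for 8 of the 9 in PBS and 7 in Gel (51.3% and 50.1% of all genes). Best1 (-0.22) and Pmel (-0.45) were below 0 in Gel. The largest mean in Gel was that of Ttr, 95.6 CPM. The 7 lens markers reached 35.0 CPM in Normoxic replicate 2 and stood between 1.43 and 7.20 CPM elsewhere. The part of these cells in the values of Nr2e3, Nrl, Crx and the other rod genes was not tested.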

How the data were processed

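Retina RNA from 9 mouse libraries was analysed as deposited. The deposited count table holds whole-number counts per gene, and the authors' FPKM values equal count divided by library total and by 1 length per gene (relative spread at most 2.9e-10), so FPKM served for gene length and for levels between genes. The build GRCm39 and the tools DESeq2 1.4.5, RSEM 1.3.1 and Bowtie2 appear in the submitters' processing notes, with no role given; rounding and strand are not given in the sources used here. Symbols and Entrez numbers come from the table.

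Groups followed the sample titles. In R 4.3.3, filterByExpr of edgeR 4.0.16 (minimum count 10) kept 17362 genes, all 30 rod genes among them. TMM scaling and the quasi-likelihood test with group as the only term were fitted to all 9 libraries, with Benjamini-Hochberg adjustment over all kept genes. SE is the log2 fold change over the square root of F. CPM uses library totals, and log2 CPM values use TMM and a prior count of 2. The test was checked on simulated counts with known changes, drawn independently for each gene and without a length trend. That check does not cover the length pattern of these libraries. Alternatives were RLE factors, library totals, DESeq2 1.42.0, limma-voom (limma 3.58.1), other count filters, 2 groups only, a replicate block, removal of a length trend (lowess, span 0.3) and leaving out each library. All 30 rod genes could be named, and from other lists the called genes; rod genes and lists were chosen with earlier results of these data known. Promoters are from RefSeq (GRCm38.p6) and were searched on both strands. No reads were reprocessed.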

Additional observations from a re-analysis of the deposited data

How the results depend on the processing

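The number of rod genes called in PBS against Normoxic was 2 with DESeq2, 1 without a count filter and 1 with the length trend removed, in place of 0. Of all genes, 1936, 1258 and 1474 were called in these settings, in place of 1101. In Gel against Normoxic 2 rod genes were called, in place of 1, with the length trend removed and with the 2 groups alone. The same 2 were called with the length trend removed and PBS replicate 3 left out together (chosen after seeing the data). In these settings 436, 643 and 893 of all genes were called, in place of 245. Leaving out 1 library gave 0 to 1 rod genes called in PBS against Normoxic (455 to 1184 of all genes). It gave 0 to 2 in Gel against Normoxic (47 to 735 of all genes) and 0 to 0 in Gel against PBS (0 to 12). The median log2 fold change of the rod genes then ran from 0.021 to 0.18, from 0.083 to 0.17 and from -0.039 to 0.13. It was 0.15 in Gel against Normoxic with the length trend removed, and 0.032, 0.15 and 0.11 in PBS against Normoxic, Gel against Normoxic and Gel against PBS with that trend removed and PBS replicate 3 left out. The ratio of summed rod CPM in PBS against Normoxic was 1.08, and 0.997 without PBS replicate 3. In Gel against PBS it was 1.01, and 1.09 without that library. Every alternative moved the ratio by less than the spread between libraries. That spread includes the library left out, so it cannot show that the ratio is stable. Of 1682 values of rod genes past the threshold in neither setting, 144 had the other sign, and 0 called values reversed.

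Replicate numbers are shared by the groups but nothing in the labels pairs them. Deviations of same-numbered libraries correlated at -0.21 to 0.36, and the same number was the best match in 4 of 18 cases. With the replicate number as a block, 0, 0 and 1 rod genes were called in PBS against Normoxic, Gel against PBS and Gel against Normoxic (1050, 0 and 227 of all genes).

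With 3 libraries per group, the intervals in Gel against PBS remain wide. Over all genes, the calls of PBS against Normoxic were 1936 with DESeq2 in place of 1101, and of Gel against Normoxic 845 with DESeq2 and 643 with 2 groups, in place of 245. In Gel against PBS DESeq2 called 62 in place of 0.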
